A study of Mus musculus with 2 samples.

Results

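The genes described here are 10 genes of the mammalian circadian clock, Clock, Arntl, Per1, Per2, Per3, Cry1, Cry2, Nr1d1, Nr1d2 and Dbp, measured in the forebrain of newborn mice. They were taken by gene symbol, and each was matched by Ensembl identifier to 1 of the 43346 genes in the deposited tables, so that 10 of 10 were found. Total RNA longer than 200 nt and depleted of ribosomal RNA was sequenced in 2 stranded paired-end libraries, with RNA spike-ins added. Both come from healthy mice of strain B6NTac;B6NCrl/Lap at postnatal age 0 days, males and females pooled, and they form 1 group without a treated, mutant or later group beside it. Replicate 1 was made from the forebrains of 15 mice and replicate 2 from an unstated number of pooled mice. The labels describe separate tissue isolates but give both the same donor identifier, so each SD below is the spread between these isolates (n = 2 libraries). The hour of the day at which tissue was taken is not given in the sources used here.

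The clock is a feedback loop of transcription. CLOCK and BMAL1, the product of Arntl, form a dimer that binds E-box sequences and switches on the Per, Cry, Nr1d and Dbp genes. PER and CRY proteins then repress that dimer, the REV-ERB proteins encoded by Nr1d1 and Nr1d2 repress Arntl, and DBP carries the rhythm to genes with D-box sequences, Per genes among them. In mice the master pacemaker is the suprachiasmatic nucleus of the hypothalamus, while clock genes are expressed in most cells, and in adult tissue the transcripts of most of these genes rise and fall over the day.

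The DNA elements that link the genes can be read in their promoters. Windows of 250 bases before to 50 bases after each transcription start were taken from RefSeq on build GRCm38.p6, of which 13 windows belong to 9 of the 10 genes. They were searched on both strands for the E-box CACGTG, the E-box-like CACGTT, which reads as AACGTG on the other strand, the D-boxes TTATGTAA and TTACGTAA, the ROR and REV-ERB element TAGGTCA and the cyclic AMP response element TGACGTCA. A match was found in windows of 6 genes, and no match overlapped another. The stretches below show the matches in capitals with the bases around them, each 5′ to 3′ on the strand of its gene.
Per1 (chr11:69098753-69098818, plus strand): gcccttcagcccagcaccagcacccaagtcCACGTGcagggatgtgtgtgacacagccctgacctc
Per3 (chr4:151044786-151044900, minus strand): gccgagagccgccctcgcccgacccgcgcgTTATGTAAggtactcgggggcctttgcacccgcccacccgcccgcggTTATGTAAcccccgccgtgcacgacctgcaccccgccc
Cry1 (chr10:85185079-85185163, minus strand): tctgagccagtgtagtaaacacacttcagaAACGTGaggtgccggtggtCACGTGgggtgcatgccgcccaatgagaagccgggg
Cry2 (chr2:92434200-92434265, minus strand): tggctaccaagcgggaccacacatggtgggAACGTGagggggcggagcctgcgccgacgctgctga
Nr1d1 (chr11:98775370-98775435, minus strand): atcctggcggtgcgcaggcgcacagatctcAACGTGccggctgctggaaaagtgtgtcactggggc
Arntl (chr7:113207511-113207560, plus strand): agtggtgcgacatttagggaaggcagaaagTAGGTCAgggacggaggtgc

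The E-box CACGTG stood 166 bases before the start in Per1 and 60 bases before it in Cry1, and 7.15% of all 32851 promoter windows hold it. The E-box-like sequence stood 79 bases before the start in Cry1, 166 bases before it in Cry2 and 28 bases before it in Nr1d1, and 4.69% of windows hold it. Per3 held the D-box TTATGTAA at 205 and again at 158 bases before its start, a sequence in 0.938% of windows. The only match in Arntl was the ROR and REV-ERB element, 31 bases after the start, which 2.61% of windows hold. TTACGTAA is in 0.119% and TGACGTCA in 1.79% of windows, and neither was matched in a window of these genes. The windows of Clock, Nr1d2 and Dbp held none of the 6 sequences, which says only that these letters are not in these windows. The Per1 window lies inside the gene as GENCODE annotates it. A match is a sequence and not evidence of binding.

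Levels are given as coding TPM, that is the deposited TPM (transcript abundance per length) rescaled so that the protein-coding genes of a library sum to the total of all features. The rescaling multiplied the deposited values by 7.38 in replicate 1 and 4.54 in replicate 2, because protein-coding genes held 13.5 and 22.0% of deposited TPM. TPM is per length, so levels of different genes can be set side by side. Replicate 1 held 62516003 expected counts and replicate 2 held 65912060. The interval given with a level is the one deposited with it, at a confidence level not stated in the file headers, and it covers counting and read assignment within a library, not the spread between animals.

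All 10 genes were at 1 coding TPM or more in both libraries. Their means lay between 4.88 and 30.5 coding TPM, in the order Cry2, Per1, Arntl, Cry1, Nr1d2, Clock, Dbp, Per2, Nr1d1 and Per3. The median of the 13596 protein-coding genes at 1 coding TPM or more in both libraries was 25.5 in replicate 1 and 28.2 in replicate 2, so the clock genes were at or below the middle of expressed genes, apart from Cry2 in both libraries and Per1 in replicate 2. The 10 genes together held 144 coding TPM in replicate 1 and 192 in replicate 2. Per1 held 16.0 and 36.6 of these sums, but stood at 17.2 and 21.6 over transcripts of at least 500 nt. In this bulk tissue, fewer cells that express a gene and less RNA per cell cannot be told apart.

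**Figure D1:**
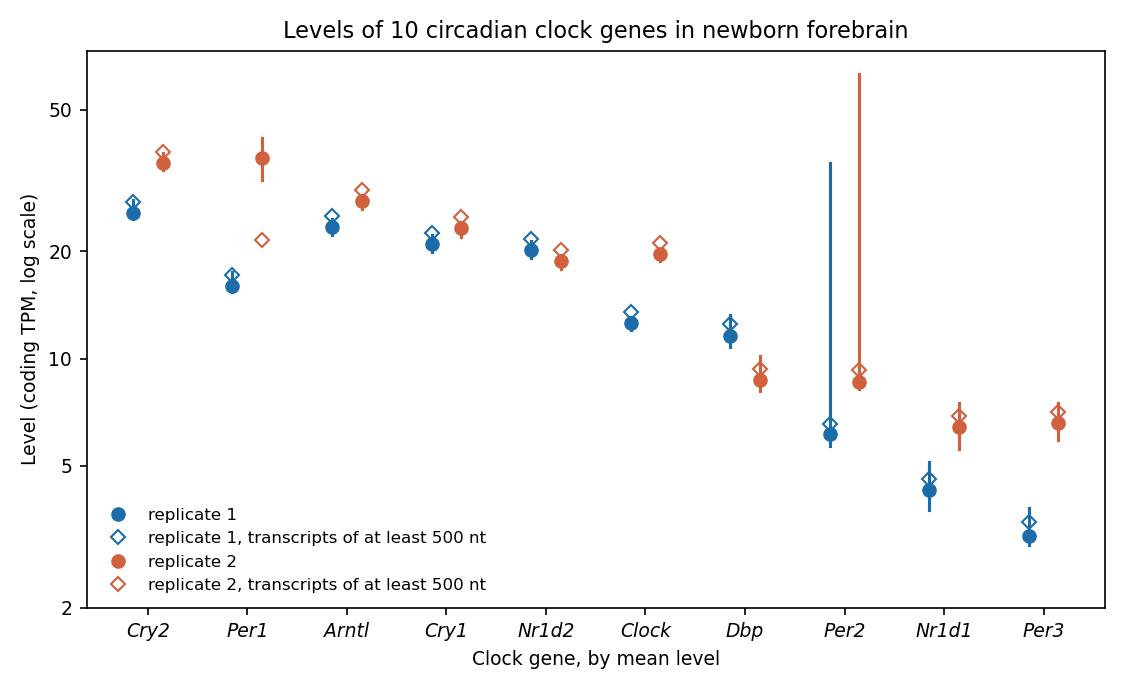
Level of each clock gene in coding TPM (log axis) in replicate 1 and replicate 2, with the deposited interval as a line. Filled points use all transcripts and open diamonds those of at least 500 nt, rescaled likewise. Per1 is the gene whose libraries stand farthest apart, and Per2 has the widest intervals.

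Of the activators, Arntl was the more abundant. Arntl (ENSMUSG00000055116.7, chr7:113207465-113314126, plus strand) stood at 23.5 coding TPM in replicate 1 (interval 22.2 to 24.7) and 27.7 in replicate 2 (interval 26.2 to 28.8), with a mean of 25.6 ± 2.95 (SD, n = 2). Clock (ENSMUSG00000029238.8, chr5:76209868-76304792, minus strand) stood at 12.6 coding TPM in replicate 1 (interval 12.0 to 13.1) and 19.6 in replicate 2 (interval 18.8 to 20.1), with a mean of 16.1 ± 4.94 (SD, n = 2). The libraries differed more for Clock than for its partner, and the range of Clock lay wholly below that of Arntl. Within a library the level of Arntl was 1.86 times that of Clock in replicate 1 and 1.41 times in replicate 2, and the intervals did not overlap in either. The values rest on 1369 and 1753 counts of Arntl and on 2001 and 3401 counts of Clock, whose main transcript is 7478 nt long against 2904 nt for Arntl.

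The partners that can stand in for these proteins, NPAS2 for CLOCK and BMAL2 (Arntl2) for BMAL1, were lower in mean level. Npas2 had 12.7 coding TPM in replicate 1 and 4.45 in replicate 2. Clock over Npas2 was thus 0.994 in replicate 1 and 4.41 in replicate 2, a mean log2 ratio of 1.07 ± 1.52 (SD, n = 2) whose spread exceeds it. A 484 nt transcript, Npas2-203, held 57.7% of the gene's TPM in replicate 1 on 38 counts and 0% in replicate 2. Without transcripts under 500 nt, a setting chosen after seeing the data, Clock was 2.34 and 4.41 times the level of Npas2 in replicates 1 and 2. Arntl2 had 1.99 coding TPM in replicate 1 and 1.18 in replicate 2, from 118 and 76 counts. Arntl was 11.8 and 23.4 times as high in replicates 1 and 2, yet the deposited intervals of Arntl and Arntl2 overlapped. In the posterior estimates, 79.3 and 92.2% of the Arntl2 level fell on transcripts that the point estimate puts at 0.

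The Per genes encode the repressors whose slow accumulation times the loop, and their order was Per1, Per2, Per3 in both libraries. Per1 (ENSMUSG00000020893.13, chr11:69095217-69109960, plus strand) stood at 16.0 coding TPM in replicate 1 (interval 15.4 to 17.5) and 36.6 in replicate 2 (interval 31.6 to 41.6), with a mean of 26.3 ± 14.5 (SD, n = 2). Its 1428 and 1943 counts differed far less than these levels. A 496 nt transcript, Per1-204, held 45.1% of the Per1 level in replicate 2 on 90.3 counts, and none of it in replicate 1. Over transcripts of at least 500 nt, Per1 stood at 17.2 and 21.6 coding TPM in replicates 1 and 2.

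Per2 and Per3 were among the lowest of the 10 genes. Per2 (ENSMUSG00000055866.9, chr1:91415982-91459324, minus strand) stood at 6.13 coding TPM in replicate 1 (interval 5.71 to 35.4) and 8.63 in replicate 2 (interval 8.20 to 62.8), with a mean of 7.38 ± 1.77 (SD, n = 2) from 749 and 1156 counts. The point estimate lies near the bottom of each interval. In the posterior mean, 61.4 and 67.6% of the Per2 level fell on Per2-202, a processed transcript of 231 nt that the point estimate puts at 0, and the gene's posterior mean level was 15.7 and 26.3 coding TPM. Per3 (ENSMUSG00000028957.8, chr4:151003652-151044665, minus strand) stood at 3.18 coding TPM in replicate 1 (interval 3.00 to 3.81) and 6.58 in replicate 2 (interval 5.93 to 7.503), with a mean of 4.88 ± 2.41 (SD, n = 2) from 381 and 662 counts. The level of Per1 was 2.61 and 4.24 times that of Per2 in replicates 1 and 2, though their intervals overlapped in both libraries. It was 5.05 and 5.56 times that of Per3, with intervals apart, and 4.93 and 3.05 times over transcripts of at least 500 nt. Per2 was 1.93 and 1.31 times as high as Per3, with intervals that did not overlap.

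Of the Cry genes, which encode the strongest repressors of CLOCK and BMAL1, Cry2 was the more abundant. Cry2 (ENSMUSG00000068742.7, chr2:92403646-92434043, minus strand) stood at 25.6 coding TPM in replicate 1 (interval 24.6 to 27.9) and 35.4 in replicate 2 (interval 33.9 to 37.8), with a mean of 30.5 ± 6.89 (SD, n = 2). Cry1 (ENSMUSG00000020038.9, chr10:85131700-85185064, minus strand) stood at 21.04 coding TPM in replicate 1 (interval 19.9 to 22.2) and 23.2 in replicate 2 (interval 21.95 to 24.3), with a mean of 22.1 ± 1.56 (SD, n = 2). The ranges of Cry2 and Cry1 over the libraries did not overlap. Cry2 was 1.22 and 1.52 times as high as Cry1 in replicates 1 and 2, with intervals apart in both. Cry2 was above 68.5 and 72.8% of protein-coding genes, and Cry1 above 64.7 and 64.5%. Counts were 1853 and 2551 for Cry2 and 1279 and 1535 for Cry1.

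The REV-ERB genes encode nuclear receptors that repress Arntl, and Nr1d2 was the more abundant of them in both libraries. Nr1d2 (ENSMUSG00000021775.10, chr14:18204054-18239127, minus strand) stood at 20.2 coding TPM in replicate 1 (interval 19.2 to 21.3) and 18.8 in replicate 2 (interval 17.8 to 19.5), with a mean of 19.5 ± 1.05 (SD, n = 2) from 1848 and 1957 counts. Nr1d1 (ENSMUSG00000020889.11, chr11:98767932-98775333, minus strand) stood at 4.28 coding TPM in replicate 1 (interval 3.76 to 5.13) and 6.45 in replicate 2 (interval 5.59 to 7.505), with a mean of 5.37 ± 1.53 (SD, n = 2) from 218 and 345 counts. Nr1d2 was 4.72 and 2.91 times as high as Nr1d1 in replicates 1 and 2. Nr1d1 shares 263 exonic bases with Thra on the opposite strand, a gene with 46940 and 42483 counts. Whether the counting used the strand is not given in the sources used here. The deposited posterior SD of the count was 0 for both Nr1d1 and Thra in both libraries, so the deposited assignment left no reads in doubt between them.

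Dbp encodes a transcription factor of the PAR bZIP family and is a direct target of CLOCK and BMAL1. Dbp (ENSMUSG00000059824.6, chr7:45705088-45710203, plus strand) stood at 11.6 coding TPM in replicate 1 (interval 10.8 to 13.3) and 8.72 in replicate 2 (interval 8.10 to 10.2), with a mean of 10.2 ± 2.03 (SD, n = 2) from 391 and 317 counts. Its level was higher in replicate 1, as was that of Nr1d2, while the other 8 genes were at a higher level in replicate 2. Dbp shares 539 exonic bases with Sphk2 on the opposite strand, which had 1337 and 1348 counts, and the posterior SD was again 0 for both genes in both libraries. Cry2 shares 295 exonic bases with D930015M05Rik, which had 0 counts in both libraries, and Arntl shares 33 with Gm45355, not analysed here.

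The order of the levels is coarse. Of 9 pairs of neighbours in it, only Arntl and Cry1 differed beyond both the range over the libraries and the deposited intervals. Their margin was narrow. In replicate 1 the interval of Arntl began at 22.18 and that of Cry1 ended at 22.17 coding TPM. The lowest level of Arntl was 23.48 and the highest of Cry1 23.24. The ranges of Cry1 and Nr1d2, of Clock and Dbp, and of Dbp and Per2 did not overlap, but the intervals did, in replicate 1 only for the pairs of Cry1 with Nr1d2 and Clock with Dbp. Of all 45 pairs, 26 were apart by both measures and 39 had the same order in both libraries. Over transcripts of at least 500 nt, Per1 moved from just below Cry2 to just below Nr1d2 and the other 9 genes kept their order.

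The isoform percentages, each transcript's share of its gene's TPM, show what these levels are made of. In 8 of 10 genes the same transcript led in both libraries, and the exceptions were Per1 and Per3. Clock, Arntl and Cry1 have 1 annotated transcript each, and Per2 had 1 above 0. The leading transcript held 76.6 and 62.0% in Cry2, 91.2 and 88.5% in Nr1d1, 91.2 and 98.1% in Nr1d2, and 88.8 and 79.7% in Dbp, in replicates 1 and 2.

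Per1 and Per3 differed in composition between the libraries. The full-length Per1-201, of 4671 nt, held 55.5% of Per1 in replicate 1 and 33.8% in replicate 2. Per1-202 held 29.4 and 9.08%, Per1-203 15.1 and 0%, and Per1-205, annotated as a target of nonsense-mediated decay, 0 and 12.0%. The coding transcript Per3-201 held 78.6% of Per3 in replicate 1 and 31.3% in replicate 2. The processed transcript Per3-204 held 8.26 and 36.4%, and the retained-intron transcripts Per3-205 and Per3-202 held 13.2 and 18.4%, and 0 and 12.6%. In all, 21.4% of Per3 in replicate 1 and 68.7% in replicate 2 was assigned to transcripts that are not protein-coding. In its coding transcripts, Per3 stood at 2.45 and 2.04 coding TPM in replicates 1 and 2, so the higher Per3 level of replicate 2 lay in transcripts without that annotation. These shares come from reads that transcripts of 1 gene have in common, and no test of them was made.

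**Figure D2:**
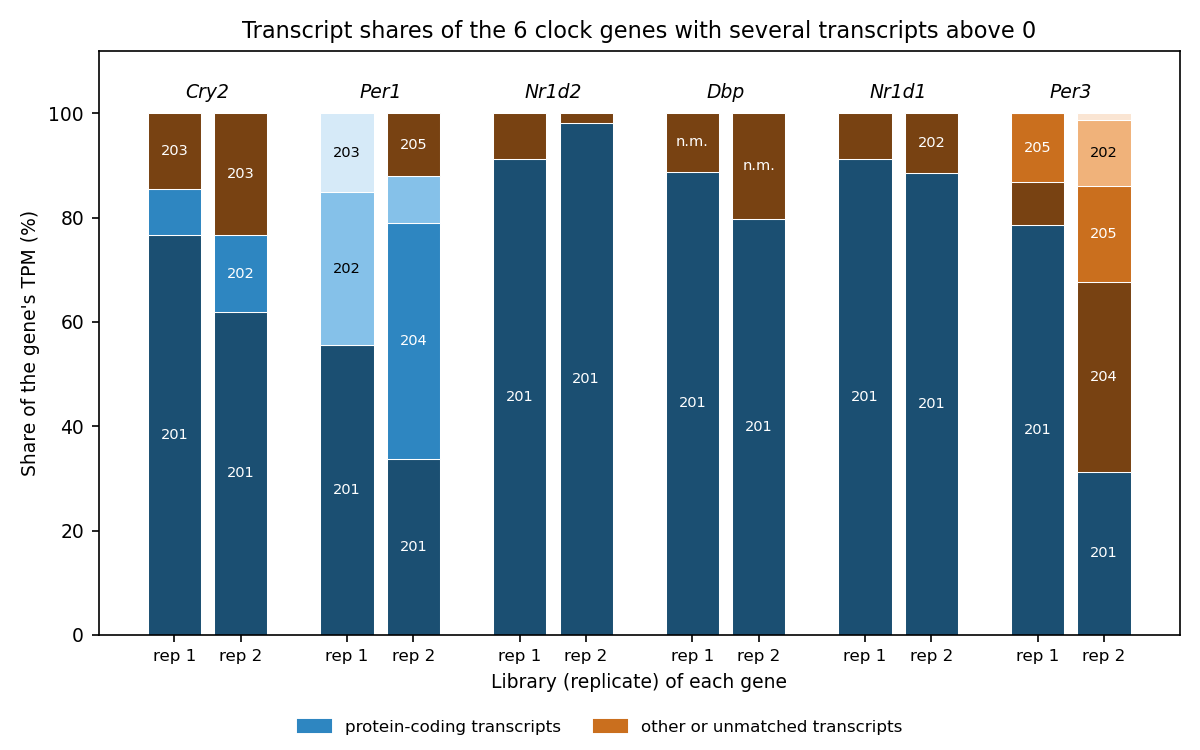
Share of each gene's TPM held by its transcripts, in percent, in replicate 1 and replicate 2 for the 6 clock genes with more than 1 transcript above 0, protein-coding transcripts in blue and others in brown, numbered as in the gene-transcript names (n.m. has no name matched). Per1 and Per3 change their leading transcript between the libraries, with Per3-201 at 78.6% in replicate 1 and 31.3% in replicate 2.

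Between the libraries, none of the 10 genes differed by the rule used for a call, against 10.4% of the 17544 genes tested. The rule is an adjusted p under 0.05 in a two-sided exact binomial test and at least 2-fold. All 10 average 100 counts or more, and with the test run on the 13681 genes that do, 2.77% were called. No call among 10 is thus near that share. The test, with counts scaled by TMM in edgeR and Benjamini-Hochberg adjustment over all genes, compares the reads of these libraries and not conditions. Over all genes 867 were called higher and 966 lower in replicate 1, and 656 higher and 1310 lower when scaled by library totals, which moves the median log2 ratio of all genes to −0.19 (0.0027 with TMM). At any fold, 8 of 10 clock genes had an adjusted p under 0.05 in the exact test, beside 65.4% of all genes. Nr1d2 and Dbp were higher in replicate 1, where 33.2% of all genes were, and Clock, Per1, Per2, Per3, Cry2 and Nr1d1 were lower, where 32.2% were.

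The log2 ratios of counts, replicate 1 over replicate 2, ran from −0.52 to 0.58 with a median of −0.17, while the middle 50% of all genes lay between −0.26 and 0.27. Dbp had the highest ratio, 0.58 (SE 0.11, adjusted p = 3.17e-07, exact binomial test). Per3 and Clock had the lowest, −0.52 (SE 0.093, adjusted p = 6.09e-08, exact test) and −0.49 (SE 0.041, adjusted p = 1.59e-32, exact test). The ratios of Nr1d1 and Per2 were −0.38 (SE 0.12, adjusted p = 0.0043, exact test) and −0.35 (SE 0.068, adjusted p = 8.03e-07, exact test). Cry2, Per1 and Nr1d2 lay nearer 0, at −0.18, −0.17 and 0.20. Arntl and Cry1 did not pass the test, with ratios of −0.08 (SE 0.052, adjusted p = 0.186, exact test) and 0.02 (SE 0.055, adjusted p = 0.82, exact test).

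Transcript length moved with these ratios. Among genes averaging 100 counts or more, the median ratio was 0.25 for the 2563 genes with a main transcript of up to 1500 nt and −0.14 for the 2433 over 5000 nt. Mean fragment lengths were 248.7 nt in replicate 1 and 269.7 nt in replicate 2. Across the 10 clock genes Spearman's rho between ratio and length was −0.62, and across 13644 genes it was −0.38, as a description over genes that share the 2 libraries. With a smooth trend over length and GC content removed, the clock genes' ratios ran from −0.37 to 0.54. Then 6 of 10 had an adjusted p under 0.05 in the exact test, beside 62.6% of all genes, which is near the same share. Per1 went to −0.0015 and Cry2 to −0.07, and neither passed. The 6 that passed were Dbp at 0.54, Nr1d2 at 0.28, Nr1d1 at −0.36, Per3 at −0.37, Clock at −0.35 and Per2 at −0.19. Spearman's rho with length was then −0.45 across the 10 clock genes and 0.0002 across the 13644 genes.

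**Figure D3:**
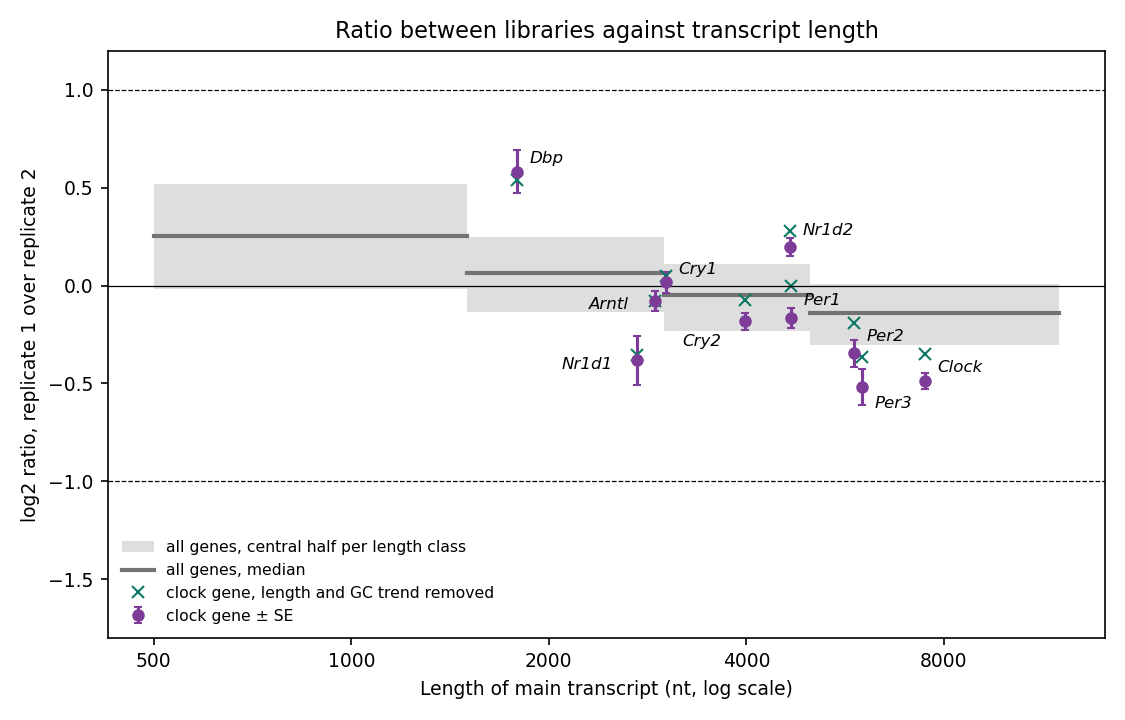
Log2 ratio of counts, replicate 1 over replicate 2, against the length of the main transcript (nt, log axis) for the clock genes. Bars show the SE from counting, crosses the ratio after the length and GC trend was removed, grey lines and bands the median and middle 50% of genes averaging 100 counts or more per class of length, and dashed lines 2-fold. Long genes such as Clock and Per3 lie low and the short gene Dbp lies high. Against that order, Nr1d1, at 2721 nt, lies low and Nr1d2, at 4663 nt, lies above 0. All 10 stay within 2-fold.

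Beyond the 10 genes, 34 other clock-related genes in 8 lists are reported here, and these 34 were all at 1 coding TPM or more in both libraries. None of these 34 was called between the libraries by the exact binomial test with the 2-fold rule, while 4.94% of all genes were called higher in replicate 1 and 5.51% lower. Most of these 34 average 100 counts or more, and among the genes that do, 2.77% were called in either direction. No call among 34 is thus near that share. Rorb and Rora, nuclear receptors that activate Arntl through the same element that the REV-ERB proteins bind, stood at 20.01 and 16.3, and at 8.27 and 9.44 coding TPM in replicates 1 and 2.

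Among the factors that share D-box sites with DBP, the activator Tef was the most abundant. Tef stood at 58.3 and 69.0 coding TPM in replicates 1 and 2, above Dbp in both. Hlf, another activator of that family, stood at 5.46 and 6.58, with intervals of 5.34 to 20.04 and 6.35 to 38.9 that overlapped those of Dbp, and with posterior means of 10.4 and 17.7 beside 11.9 and 9.06 for Dbp. Nfil3, which represses at the same sites, stood at 28.4 and 19.9. Of the other repressors of CLOCK and BMAL1, Cipc stood at 51.5 and 60.5, Bhlhe40 at 15.1 and 7.81 and Bhlhe41 at 2.36 and 3.41 coding TPM. Over transcripts of at least 500 nt, Bhlhe40 stood at 9.83 and 8.40, on 606 and 535 counts of the gene. Timeless, which in mouse acts chiefly in DNA replication, stood at 11.3 and 8.94, and at 8.88 and 9.62 over transcripts of at least 500 nt.

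The kinases that phosphorylate clock proteins were all at a higher level than any of the 10 clock genes in both libraries. The casein kinases Csnk1e and Csnk1a1 stood at 371 and 442, and at 398 and 404 coding TPM in replicates 1 and 2, Csnk2a1 at 187 and 211, and Csnk1d, the lowest of its list, at 75.5 and 102.6. The genes of ubiquitin turnover, which sets how long PER and CRY proteins last, spanned a wide range. Among them Fbxw11 stood at 143 and 155, Btrc at 33.0 and 37.7 and Fbxl21, the lowest, at 5.24 and 6.86, while Usp2, a protease that removes ubiquitin, stood at 10.2 and 15.9. Of the coregulators, Nono stood at 390.4 and 365, Hdac3 at 135 and 125, Ncor1 at 113 and 117 and Kmt2a, the lowest, at 14.0 and 17.8. The last list holds other genes known as outputs of the clock or of glucocorticoid signals that feed into it. Among them Tsc22d3 stood at 91.1 and 109, Sgk1 at 82.9 and 93.3 and Nampt at 37.0 and 42.7 coding TPM. Wee1, the lowest, stood at 2.81 and 5.27. Over transcripts of at least 500 nt, Sgk1 stood at 75.9 and 73.2 and Usp2 at 6.34 and 11.04 in replicates 1 and 2.

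**Figure D4:**
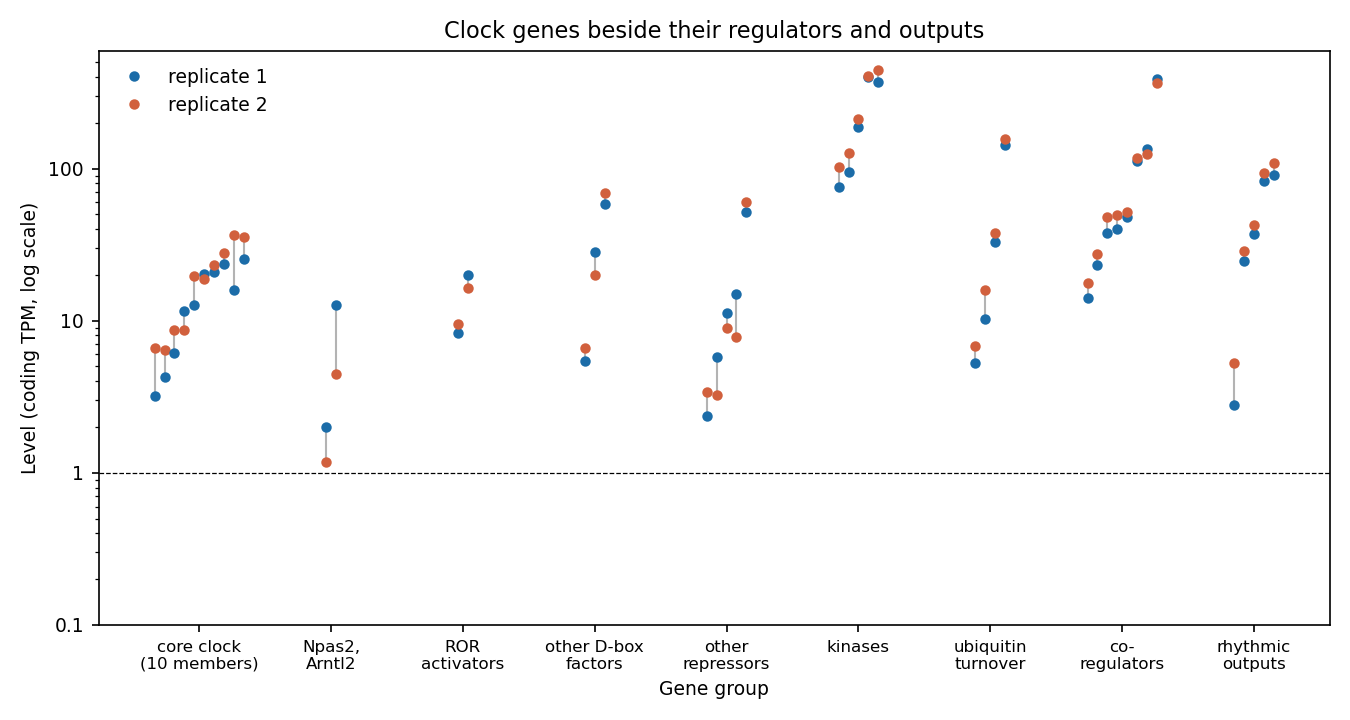
Level in coding TPM (log axis) of the clock genes and of the other clock-related genes by list, 1 point per library with a line joining the libraries and a dashed line at 1. The kinases Csnk1e and Csnk1a1 and the coregulator Nono lie at the top, every point lies above 1, and the means of the 10 clock genes fall between 4.88 and 30.5.

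Markers show which tissue stood behind these levels. All 8 telencephalic factors were at 1 coding TPM or more in both libraries and none was called. Of 12 genes that mark the suprachiasmatic nucleus, 8 were at that level in both libraries, with sums of 175 coding TPM in replicate 1 and 199 in replicate 2. Avp, the highest of the 12 genes, held 84.6 and 88.6 of these sums, a gene that other hypothalamic nuclei express too. Prokr2 held 27.5 and 45.8, but stood at 17.3 and 16.1 over transcripts of at least 500 nt. The higher sum of replicate 2 thus rests mostly on short transcripts of Prokr2. Of these 12, Vip was called higher in replicate 1, and Nms, Vipr2, Lhx1 and Six6 lower. Counts of the called genes ran from 3 and 22 for Nms to 162 and 500 for Lhx1 in replicates 1 and 2. Of all genes tested, 4.94% were called higher in replicate 1 and 5.51% lower. Among genes averaging 100 counts or more, 2.77% were called in either direction. Of 10 diencephalic genes, 6 were called lower in replicate 1 and none higher, with a median log2 ratio of −1.45. The 10 genes summed to 46.4 coding TPM in replicate 1 and 89.3 in replicate 2. Counts of the 6 called genes ran from 10 and 45 for Hmx3 to 261 and 929 for Sim1. Of 6 meningeal fibroblast genes, 3 were called lower and none higher, with a median of −1.02 and sums of 293 and 783 coding TPM. The clock genes were compared between libraries that differ in these markers, and the part of either list in the ratios of the clock genes was not tested.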

How the data were processed

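The authors deposited gene and transcript tables for each library on mm10 with GENCODE M4. Which aligner and quantifier made them was not given in the sources used here. The deposited expected counts need not be whole and were rounded for tests. The deposited TPM values, with interval bounds, sum to 1 total over all features, and coding TPM rescales them to the protein-coding sum. The deposited FPKM values served as an alternative. The deposited isoform percentages give each transcript's share of a gene. The deposited posterior SD of the count, in units of counts, was 0 for all 10 clock genes in both libraries.

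Identifiers were matched to GENCODE M21 on the same assembly, which covered 42462 of 43346 genes. The 17544 genes averaging 10 counts or more were scaled by TMM in edgeR 4.0.16 (R 4.3.3) and tested by an exact binomial test with Benjamini-Hochberg adjustment in scipy 1.17.1 and Python 3.11.15. Ratios had 0.5 added to each count. A spline (5 degrees of freedom) over transcript length and GC content gave the trend. Alternatives were DESeq2 1.42.0 size factors, library totals, other filters, thresholds and levels, a pseudocount of 1, posterior means and leaving out each library. The script was tested on simulated data. The clock genes and lists were chosen with earlier results of these data known. Named genes were the 10 clock genes, the genes of the pairs and, of each other list, the 3 highest, the lowest and every called gene, with lists of markers given by counts and sums. Some genes of the clock-related lists are not reported here. Intervals cover counting and read assignment within a library only, and the SEs given for the clock genes cover counting error only. Neither accounts for reads copied by PCR, which carry no molecular identifier.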

Additional observations from a re-analysis of the deposited data

How the results depend on the processing

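None of the 10 clock genes was called under any of the alternatives run, and their log2 ratios kept their direction in 69 of 70 settings tried for single genes. The exception was Cry1, at −0.18 with library totals, which move the median of all genes to −0.19. With them Nr1d2 had a ratio of 0.00073 in place of 0.20 and did not pass the exact test. So scaled, 1 of the 10 genes was higher and 8 were lower in replicate 1 at an adjusted p under 0.05 in the exact test. Of all genes, 71.1% had such an adjusted p with that scaling. The count of genes called, 1833, became 2752 without a filter and 379 of 13681 (2.77%) with at least 100 counts. It became 3475 at 1.5-fold and 1108 among protein-coding genes alone. All 10 genes stayed at 1 coding TPM with FPKM and with either library left out, 8 were at 5 coding TPM or more, and 7 were at 1 TPM before rescaling. With posterior mean TPM the mean log2 ratio was 0.26 for Per1 over Per2 (1.74 as reported), 2.10 for Per2 over Per3 (0.67 as reported) and 1.15 for Arntl over Arntl2 (4.05 as reported). Per1 over Per3, 2.41 as reported, was 2.17 with a pseudocount of 1 and 1.96 over transcripts of at least 500 nt, a setting chosen after seeing the data. Clock over Npas2 ranged from −0.0084 without replicate 2 to 2.14 without replicate 1. The causes of these shifts were not tested. No paired analysis was possible because both libraries form 1 group. Over both libraries Nr1d1 had the fewest counts of the 10 genes, and 2 libraries give no test over replicates.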

Other observations

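Ciart, a repressor of CLOCK and BMAL1 named here after its value was seen, had the highest ratio of its list without a call. It stood at 5.76 coding TPM in replicate 1 and 3.22 in replicate 2 on 144 and 88 counts, a log2 ratio of 0.99. Nfil3 had a ratio of 0.67 and Wee1, a kinase that holds back mitosis, a ratio of −0.74, both under 2-fold.

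The remaining marker lists stood as follows. All 5 astrocyte and radial glia genes were at 1 coding TPM or more in both libraries, with sums of 2150 coding TPM in replicate 1 and 2095 in replicate 2, and none was called. The 4 endothelial genes summed to 197 and 250.1 and the 5 choroid plexus genes to 746 and 481, again with none called. The 5 erythroid genes summed to 2511 and 1812, and 1 was called higher in replicate 1. Of 6 pineal and retinal genes 2 were tested, and 1 reached 1 coding TPM in both libraries. That gene was Crx, at 1.92 and 1.14 on 60 and 36 counts, and it was called higher in replicate 1. Asmt, the last enzyme of melatonin synthesis, had 0 counts in both, which allows up to 3 counts. Of 6 hindbrain genes 1 reached 1 coding TPM in both libraries and 3 had 0 counts in both. Only 3 were tested, and 2 of them were called higher in replicate 1 on few counts. These were En1, with 46 and 15 counts in replicates 1 and 2, and En2, with 33 and 4. Of all genes tested, 4.94% were called higher in replicate 1.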
